A study of Mus musculus with 12 samples.

Results

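The transcriptional arm of canonical Wnt signaling was followed in B16F10 melanoma cells through 6 genes: Tcf7, Lef1, Tcf7l1 and Tcf7l2, which encode the TCF/LEF DNA-binding proteins, Ctnnb1, which encodes their coactivator β-catenin, and Axin2, a target gene that feeds back on the pathway. They are 6 of the 54232 genes of the deposited count table, found by matching its Ensembl identifiers to these symbols. Tcf7 was selected on its measured rise after exposure to T-cell granules, so its differences from that group and from the untreated cells it was set against are given as a description without a test. In these cells the study inhibited Wnt signaling and saw no drop in cell-in-cell structures. It also stained phosphorylated β-catenin and saw neither an increase nor a change of place. RNA levels of the 6 genes are a separate measure and repeat neither test.

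B16F10 is a mouse melanoma line of C57BL/6 origin, and RNA was sequenced from 12 libraries in 4 groups of 3. WT cells were untreated and cultured. The relapsed lines ITF1, Rel and ITM came from subcutaneous tumors that grew back after immunotherapy in mice that were 6 weeks old when injected, and were sorted and cultured before RNA extraction. The sample labels give 6 weeks for all 12 libraries, also those of cultured cells, while the methods give older mice. The therapy combined TNFα, a CD40 agonist and an antibody against TRP1. Tumor libraries (1, 3 and 4) were made from cells sorted from such tumors with RNA extracted at once. Lyso cells were cultured B16F10 exposed to granules prepared from activated splenic CD8+ T cells, for 48 hours according to the sample labels, while the methods give a shorter time for granule incubation. The methods place these cells on low-adherence plastic coated with poly-l-lysine and do not give the plating of WT. If it differed, plating and granules cannot be told apart. The labels do not say whether libraries of WT or Lyso came from separate cultures or which mice gave the Tumor libraries, so p-values measure the spread between these libraries, which may be technical.

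Counts on genes ran from 1667398 to 16384021 in WT, from 12749399 to 16402629 in the relapsed lines, from 10895611 to 12675277 in Lyso and from 3102442 to 5049496 in Tumor. Levels are given as CPM, counts per gene scaled to library size with TMM factors, and a level of 3 counts, the floor used here, stood for 0.177 CPM in WT 3 to 1.70 CPM in WT 1, covering counting error only. WT 1 and WT 2 were shallow and WT 1 stood apart from the other WT libraries (chi-square per degree of freedom 12.8 and 20.3 against WT 2 and WT 3, beside 4.79 between those 2), so results against WT are also given without it where that changes them. Lyso 1 also stood apart, at 12.1 and 11.7 against Lyso 2 and Lyso 3, beside 1.55 between those 2. The measure was 47.4 to 67.2 among the relapsed lines and 3.64 to 5.78 in Tumor. It grows with depth, and the relapsed libraries were deeper than those of Tumor, so it does not rank the spread of these groups. All 10 melanocyte genes searched (among them Tyrp1 and Dct) were above the floor in every library, with a summed level of 19840 to 38288 CPM. Fibroblast genes (7, among them Col3a1 and Dcn) summed to 7358 to 10328 CPM in Tumor and to 9.99 to 24.9 CPM in the cultured groups, so genes of stromal cells were detected in the sorted cells. In bulk RNA, fewer cells of one type and less RNA per cell cannot be told apart.

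In the absence of a Wnt ligand, a cytoplasmic complex of Axin, APC and GSK3 marks β-catenin for destruction. When a ligand binds Frizzled and Lrp5 or Lrp6, β-catenin accumulates, enters the nucleus and binds TCF/LEF proteins, which otherwise sit on their targets with Groucho/Tle corepressors. Lef1 is known in the melanocyte lineage, and Tcf7 (TCF1) is best known in T cells. The granules came from T cells, so T-cell genes were measured beside it.

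The 4 TCF/LEF genes share a DNA-binding HMG box. The stretch of 75 coding bases in which the others are most like Tcf7 is shown, because a Tcf7 read could be assigned to the wrong member there. The 4 sequences still differ at 21 positions. These positions are in capitals and the sequences run 5′ to 3′ on the coding strand, taken from the GENCODE vM21 transcripts on GRCm38.
Tcf7: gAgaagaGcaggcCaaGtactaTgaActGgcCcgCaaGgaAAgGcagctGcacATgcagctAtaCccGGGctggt
Lef1: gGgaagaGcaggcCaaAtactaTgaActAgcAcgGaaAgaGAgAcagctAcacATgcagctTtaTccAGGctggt
Tcf7l1: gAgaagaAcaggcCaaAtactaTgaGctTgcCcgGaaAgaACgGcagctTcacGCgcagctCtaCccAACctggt
Tcf7l2: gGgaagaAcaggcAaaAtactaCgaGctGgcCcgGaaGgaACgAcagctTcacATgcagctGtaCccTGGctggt

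Each stretch lies within 1 coding exon, at chr11:52256757-52256831 (minus strand) for Tcf7, chr3:131200311-131200385 (plus) for Lef1, chr6:72631029-72631103 (minus) for Tcf7l1 and chr19:55919527-55919601 (plus) for Tcf7l2. Compared with Tcf7, 12 bases differed in Lef1, 14 in Tcf7l1 and 12 in Tcf7l2. None of the 2550 distinct 75-base stretches of Tcf7 transcripts occurred in a transcript of another gene, nor did any of Tcf7l2, so a perfectly matching read of that length cannot be shared between Tcf7 and another annotated gene.

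Tcf7 (ENSMUSG00000000782, chromosome 11, 52252371 to 52283014 on the minus strand) stood at 7.92, 8.87 and 6.37 CPM in WT 1 to 3. It was 4.99 CPM in ITF1, 6.09 in Rel and 7.19 in ITM. In Tumor 1, 3 and 4 it reached 17.6, 22.7 and 39.3 CPM. In Lyso 1 to 3 it reached 126.2, 118.6 and 103.7 CPM, from 1338, 1273 and 1281 counts. The Lyso libraries were the highest and the Tumor libraries the next highest, with no overlap between these groups or with the cultured controls, while WT and the relapsed lines overlapped.

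The means were 7.72 ± 1.26 CPM in WT, 6.09 ± 1.10 in the relapsed lines, 26.5 ± 11.4 in Tumor and 116.2 ± 11.4 in Lyso (SD, n = 3 each). As a description of the values that chose it, Tcf7 in Lyso was 15.9-fold above WT, with an SE of 0.28 log2 units, and its log2 difference was 4.24 ± 0.26 over the relapsed lines. The log2 difference of Tumor from Lyso was -2.12 ± 0.24.

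**Figure D1:**
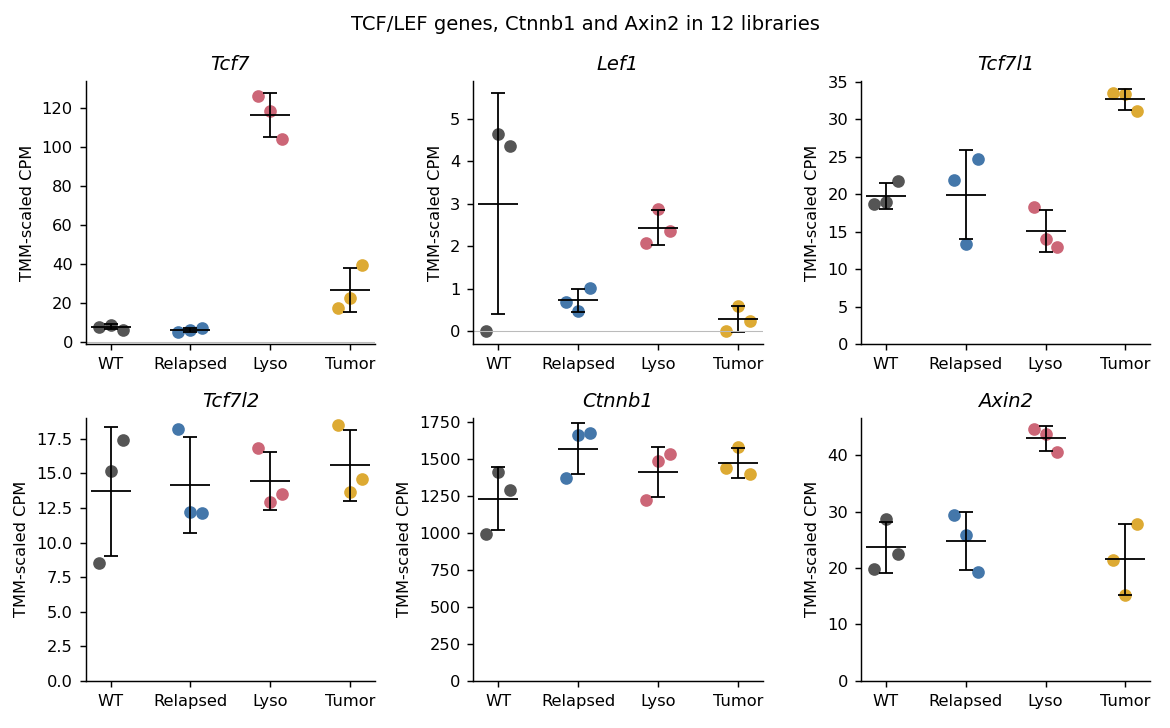
TMM-scaled CPM of the 6 genes in each library (points), with the mean and SD of each group (bars), on linear axes with a separate range per gene. Tcf7 sits at 103.7 to 126.2 CPM in Lyso and 17.6 to 39.3 CPM in Tumor, above every WT and relapsed library, and Axin2 is highest in Lyso.

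The comparison of Tumor with the relapsed lines used neither WT nor Lyso, the libraries that chose Tcf7, and serves as its test. Tcf7 rose by 2.13 ± 0.25 log2 units in Tumor over the relapsed lines, a 4.36-fold difference (edgeR quasi-likelihood test over 14924 genes, adjusted p = 7.1e-05). In a fit of Tumor and the relapsed lines only, which left WT and Lyso out, the edgeR adjusted p was 0.00313. An exact permutation test of 3 against 3 libraries cannot go below p = 0.1, which Tcf7 reached there. WT took part in choosing Tcf7, so the differences from it carry no test. Tcf7 was 1.88 ± 0.29 log2 units higher in Tumor than in WT (3.67-fold). The relapsed lines, which were cultured after sorting, differed from WT by -0.25 ± 0.29 log2 units, a difference smaller than its error.

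Tumor 4 held the highest Tcf7 level. Without it, Tumor was still 1.73 log2 units above the relapsed lines (edgeR adjusted p = 0.000112) and 1.48 above WT. The pan-leukocyte gene Ptprc was also highest in Tumor 4, at 5.88 CPM against 1.95 in Tumor 1 and 2.21 in Tumor 3, and its part in the Tcf7 level of that library was not tested.

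T-cell RNA was measured beside Tcf7 through 19 T-cell genes (receptor chains, coreceptors and signaling genes), 6 genes of cytotoxic granules and cytokines, and 6 genes that accompany Tcf7 in naive or memory T cells. Of the 19, 10 were above the floor in every Lyso library, 1 in every WT library, 2 in every relapsed library and 4 in every Tumor library. The floor stood for 0.243 to 0.283 CPM in Lyso and 0.604 to 0.975 CPM in Tumor. It was 1.27 CPM in WT 2 and 1.70 CPM in WT 1, so these numbers also depend on depth. The summed level of the 19 was 24.7 to 30.4 CPM in Lyso, 11.8 to 16.8 in WT, 6.36 to 15.7 in the relapsed lines and 59.8 to 85.2 in Tumor. In Tumor, Thy1 made up most of that sum, at 42.3 to 71.5 CPM, and it is expressed by fibroblasts too.

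Of the T-cell receptor complex, Cd3d and Cd3e were near the floor in Lyso. Cd3d was at 0, 0.466 and 0.324 CPM in Lyso 1 to 3, from 0, 5 and 4 counts. Cd3e was at 0.471, 0.652 and 0.081 CPM, from 5, 7 and 1 counts. Both were at 0 counts in every WT, relapsed and Tumor library.

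Cd8a, the coreceptor of the cells the granules came from, stood at 2.07, 1.21 and 2.27 CPM in Lyso and at 0 in WT. Trbc2, a T-cell receptor β constant gene, stood at 1.51, 1.30 and 0.891 CPM in Lyso and at 0 in WT, from 16, 14 and 11 counts in Lyso. Trac, the α constant gene, stood at 1.04, 0.838 and 0.243 CPM in Lyso, from 11, 9 and 3 counts, and had 1 count in WT. Ptprc was at 3.02, 3.63 and 2.19 CPM in Lyso. These genes were thus detected in Lyso and were absent from the counts of WT, apart from 1 count each of Trac and Ptprc. In Tumor 1, 3 and 4, Cd8a was at 0, 0.403 and 0.942 CPM. Trbc2 was at 0, 0 and 0.706 CPM there, and Trac at 0, 0 and 0.235 CPM.

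Lck, a T-cell kinase, was at 6.13, 5.87 and 5.35 CPM in Lyso and at 6.79, 1.27 and 1.36 CPM in WT 1 to 3. The Lyso values lay below WT 1, which had 12 counts of Lck, and above WT 2, WT 3 and every relapsed library. Gzmb, a granule protease, was at 6.03, 6.71 and 5.10 CPM in Lyso and at 0 in WT. Prf1, the pore-forming granule protein, was at 0.094, 0.093 and 0.243 CPM in Lyso, from at most 3 counts. Il7r, a receptor of naive and memory T cells, was at 0.189, 0.373 and 0.081 CPM. In Tumor 1, 3 and 4, Lck was at 3.90, 2.21 and 6.12 CPM and Gzmb at 0.325, 0 and 0.706 CPM.

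Levels per kilobase of exon used the merged exons of all annotated transcripts of a gene. This length can exceed that of the RNA made, by a different amount in each gene, so comparisons between genes are approximate. On this scale Tcf7, with 2 annotated transcripts and 2625 exon bases, stood at 48.1, 45.2 and 39.5 CPM per kb in Lyso 1 to 3. The highest of the 19 T-cell genes in the same libraries stood at 2.18, 2.004 and 1.82 CPM per kb. The 19 together summed to 11.1, 10.8 and 8.50 CPM per kb, so that Tcf7 alone was 4.32, 4.18 and 4.65 times their sum. The same ratio was 0.561 to 1.02 in WT and 0.430 to 1.71 in the relapsed lines, where both terms were low. Gzmb, at a mean of 4.14 CPM per kb, was the highest of the granule genes in Lyso.

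The ratio was different in Tumor, where Tcf7 was 0.245, 0.482 and 0.595 times the sum of the 19 and 1 gene, Thy1, stood above it. Without Thy1 the ratio was 1.98, 2.25 and 2.40 in Tumor and 4.92, 4.49 and 5.03 in Lyso. The 6 genes that accompany Tcf7 in T cells summed to 3.48 to 6.33 CPM in Lyso and 0.422 to 1.13 in WT, and 5 of them were above the floor in every Lyso library. B-cell genes (4) summed to 2.83 to 5.59 CPM in Lyso and 0 to 0.422 in WT, and so moved the same way. In Tumor the B-cell genes summed to 0.604 to 5.41 CPM and the 6 accompanying genes to 1.21 to 3.30 CPM. Of the 19 T-cell genes, 13 were higher in every Lyso library than in every WT library, and Cd3d, Cd247, Lck, Zap70, Lat and Cd28 were not. Some of the 13 were under the floor in Lyso, such as Cd4, at 1, 1 and 2 counts. The share of all genes that separate in this way was not counted, so the 13 are a description only. Cd247, the receptor ζ chain, had a mean of 6.07 CPM in WT and 6.06 in Lyso. The part of T-cell RNA in the Tcf7 level of Lyso was not tested.

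**Figure D2:**
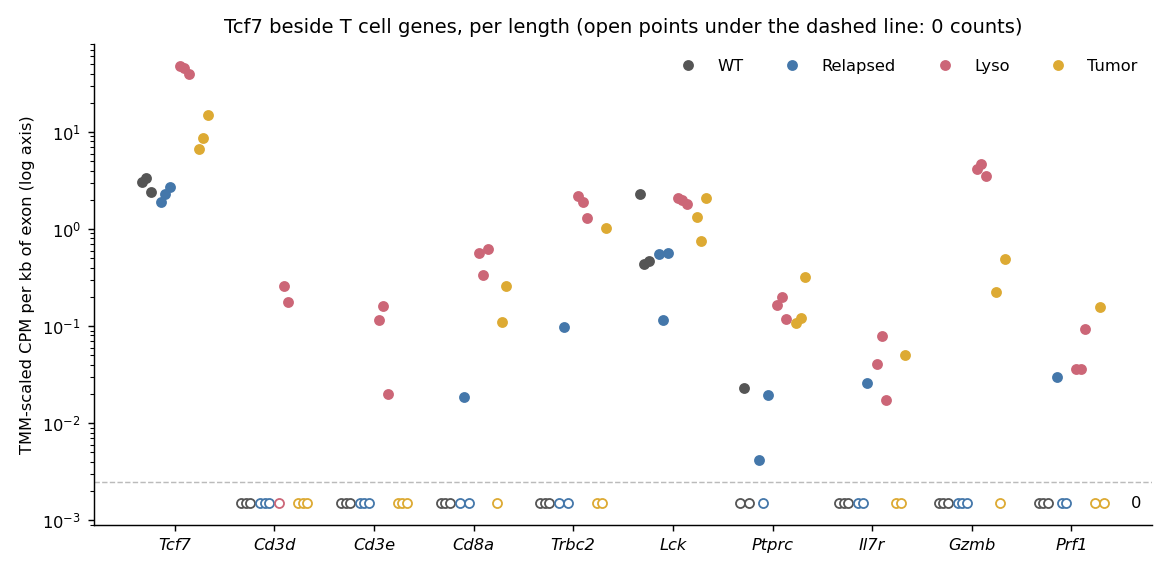
TMM-scaled CPM per kilobase of exon (log axis) of Tcf7 and 9 T-cell genes in the 12 libraries, colored by group, with open points under the dashed line for 0 counts. Tcf7 stands at 39.5 to 48.1 CPM per kb in Lyso, above every T-cell gene shown in those libraries.

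Lef1 (ENSMUSG00000027985, chromosome 3, 131110471 to 131224356), the other TCF/LEF gene prominent in T cells, was called lower in Tumor than in WT and Lyso. It was not called against the relapsed lines, the comparison in which Tcf7 was tested. It stood at 0, 4.64 and 4.36 CPM in WT 1 to 3, from 0, 11 and 74 counts. It was 0.69 CPM in ITF1, 0.47 in Rel and 1.02 in ITM. In Lyso 1 to 3 it was 2.07, 2.89 and 2.35 CPM. In Tumor 1, 3 and 4 it was 0, 0.604 and 0.235 CPM, from 0, 3 and 1 counts, all at or under the floor.

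Lef1 fell by 3.39 ± 0.84 log2 units in Tumor against WT (edgeR adjusted p = 0.0132) and differed by -2.87 ± 0.84 in Tumor from Lyso (edgeR adjusted p = 0.0241). WT 1 overlapped with Tumor at 0 counts. Tumor differed from the relapsed lines by -1.16 ± 0.95, with overlap (edgeR adjusted p = 0.432). The call against WT was lost without WT 3 (edgeR adjusted p = 0.101) or without Tumor 4 (0.0565), and that against Lyso was lost without Tumor 1, Tumor 4, Lyso 2 or Lyso 3 (0.0519 to 0.0851). Lef1 in Lyso differed from WT by -0.51 ± 0.54 log2 units (edgeR adjusted p = 0.68). In the relapsed lines the difference from WT was -2.23 ± 0.59 (edgeR adjusted p = 0.193), and that difference passed the threshold without WT 1 (0.0394). Lyso exceeded the relapsed lines by 1.72 ± 0.56 with no overlap (edgeR adjusted p = 0.0849), and this passed without WT 1 (0.0141).

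Tcf7l1 (ENSMUSG00000055799, chromosome 6, 72626378 to 72789254, minus strand), a TCF known mainly as a repressor, was at 18.7 CPM in WT 1, from 33 counts, at 21.8 in WT 3, from 370 counts, and between these in WT 2, from 45 counts. It was at 21.9 CPM in ITF1, 13.3 in Rel and 24.7 in ITM. Lyso held 18.3, 14.1 and 13.0 CPM. Tumor held 33.5, 33.4 and 31.1 CPM, above every other library.

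In Tumor, Tcf7l1 rose by 1.11 ± 0.22 log2 units over Lyso (edgeR adjusted p = 0.00232), by 0.71 ± 0.21 over the relapsed lines (0.0328) and by 0.70 ± 0.22 over WT (0.0465). The difference from Lyso was called with any library left out. The difference from WT was lost without any WT library, any Tumor library, Lyso 2 or Lyso 3 (edgeR adjusted p from 0.0569 to 0.121). That from the relapsed lines was lost without Rel or any Tumor library (0.0709 to 0.102). Lyso differed by -0.42 ± 0.22 from WT (edgeR adjusted p = 0.349) and by -0.40 ± 0.21 from the relapsed lines (0.28), the latter passing the threshold without Rel (0.0458).

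Tcf7l2 (ENSMUSG00000024985, chromosome 19, 55741820 to 55933654), the TCF with the broadest tissue range, was at 8.49, 15.2 and 17.5 CPM in WT and at 18.2 CPM in ITF1, 12.2 in Rel and 12.2 in ITM. It was at 16.9, 12.9 and 13.5 CPM in Lyso and 18.5, 13.7 and 14.6 in Tumor. All 4 groups overlapped, and the 6 differences lay between -0.03 and 0.13 log2 units with SEs of 0.24 to 0.26, none called. Several of these small differences changed sign under another scaling or without 1 library.

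Per length, on the same merged exons, the order of the TCF/LEF genes differed by group. Annotated transcripts numbered 2 for Tcf7, 8 for Lef1, 5 for Tcf7l1 and 22 for Tcf7l2, so the order within a group is approximate. In WT the mean was 5.05 CPM per kb for Tcf7l1, 2.94 for Tcf7, 1.56 for Tcf7l2 and 0.342 for Lef1. In Lyso it was 44.3 for Tcf7, 3.85 for Tcf7l1, 1.65 for Tcf7l2 and 0.277 for Lef1. In Tumor it was 10.1 ± 4.33 (SD, n = 3) for Tcf7 and 8.32 ± 0.35 for Tcf7l1, which did not differ beyond their spread, then 1.78 for Tcf7l2 and 0.032 for Lef1. The relapsed lines had the order of WT, at 5.09, 2.32, 1.62 and 0.083, where the ranges of Tcf7 and Tcf7l2 overlapped.

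Ctnnb1 (ENSMUSG00000006932, chromosome 9, 120929216 to 120960507) was the most abundant of the 6, at 192 to 323 CPM per kb. It was at 995, 1413 and 1293 CPM in WT, at 1370 in ITF1, 1661 in Rel and 1678 in ITM, at 1221, 1489 and 1535 in Lyso and at 1439, 1585 and 1397 in Tumor. All 4 groups overlapped. The differences ran from -0.15 to 0.35 log2 units with SEs near 0.16, and the highest, relapsed lines over WT, was 0.35 ± 0.16 (edgeR adjusted p = 0.463). RNA level says nothing of the amount or place of the β-catenin protein, which is set mainly by its degradation. Of its 5192 exon bases, 759 lie opposite exons of Ulk4, whose counts were 21.8% to 25.2% of those of Ctnnb1. Whether the counting used strand is not given in the sources used here, so reads from the 2 genes cannot be told apart there.

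Axin2 (ENSMUSG00000000142, chromosome 11, 108920349 to 108950783), a component of the destruction complex and a direct β-catenin/TCF target, was the only one of the other 5 genes called higher in Lyso. It stood at 19.8, 28.7 and 22.4 CPM in WT and at 29.3 CPM in ITF1, 25.8 in Rel and 19.2 in ITM. In Lyso it was 44.6, 43.8 and 40.5 CPM. In Tumor it was 21.5, 15.3 and 27.8 CPM. The Lyso libraries lay above all 9 others, and the other 3 groups overlapped.

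Axin2 rose by 0.86 ± 0.22 log2 units in Lyso over WT, a 1.82-fold difference (edgeR adjusted p = 0.0416), and by 0.79 ± 0.20 over the relapsed lines (0.0333). It was lower in Tumor than in Lyso by a log2 difference of -1.002 ± 0.22 (edgeR adjusted p = 0.00473), a call kept with any library left out. Against WT it was lost without WT 1, WT 3, Tumor 1 or any Lyso library (0.0581 to 0.149) and against the relapsed lines without Rel, ITM or any Lyso library (0.0622 to 0.128), with differences of 0.64 to 0.90. Tumor differed from WT by -0.14 ± 0.23 (edgeR adjusted p = 0.728).

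Antisense genes also lie opposite Axin2, Tcf7l1 and Lef1. Gm11670 counts were 7.01% to 16.1% of those of Axin2, and Gm15401 counts 3.03% to 20.6% of those of Tcf7l1. Gm43352, opposite 1208 of the 8788 exon bases of Lef1, held 0 to 28 counts, up to 64.7% of those of Lef1.

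Among the 5 members other than Tcf7, 1 was called higher in Lyso than in WT and 0 lower, where 3.5% of all 14924 genes tested were called higher and 1.21% lower. Against the relapsed lines, Lyso had 1 of the 5 higher and 0 lower, beside 4.87% and 2.81% of all genes. Tumor against WT had 1 of the 5 higher and 1 lower, beside 12.1% and 6.94%. Of all 6, Tumor against the relapsed lines had 2 higher and 0 lower, beside 11.8% and 7.74%. The relapsed lines against WT had 0 of the 5 called by edgeR, beside 0.0134% higher and 0.0268% lower, with 1 (Lef1) at an unadjusted p under 0.05 and 0 called by DESeq2. Tumor against Lyso had 1 of 5 higher and 2 lower, beside 14.2% and 10.5%. The comparisons share control libraries and are not independent of each other.

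**Figure D3:**
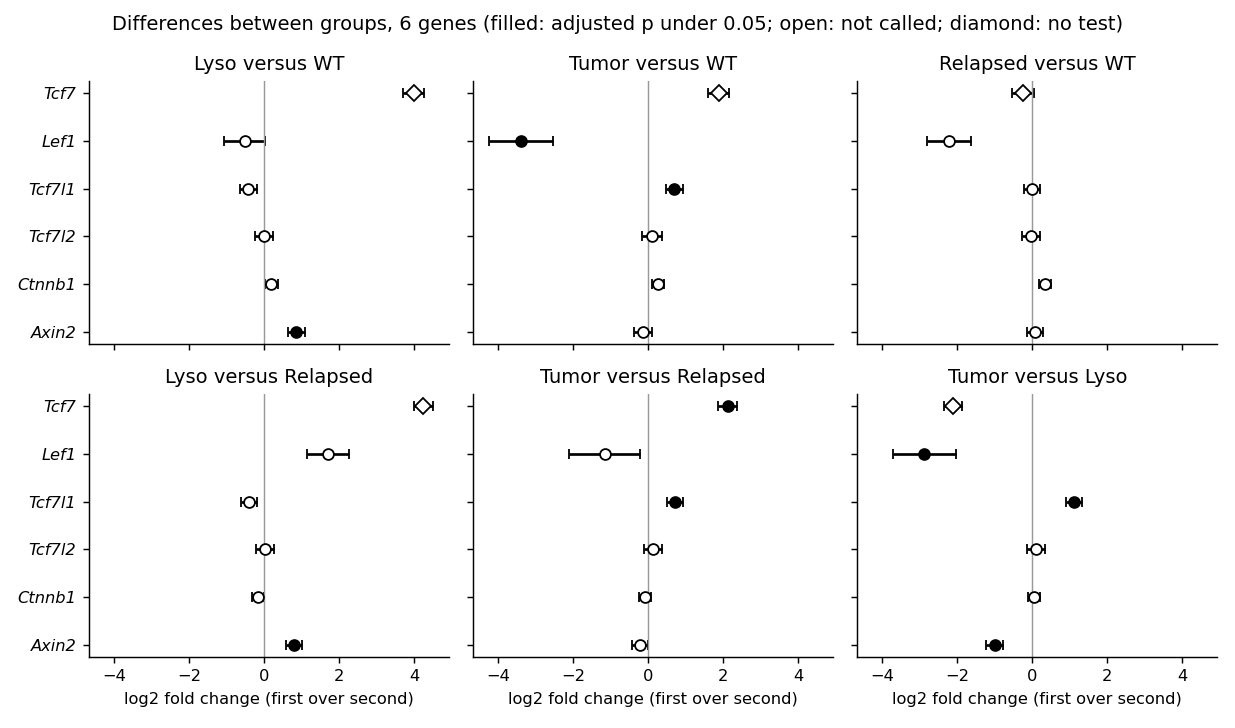
Log2 fold changes with SE bars of the 6 genes in the 6 comparisons (first group over second), filled where the edgeR adjusted p is under 0.05, open where it is not, and a diamond where no test is given. Tcf7 stands 1.88 above WT and 2.13 above the relapsed lines in Tumor, and Tcf7l2 and Ctnnb1 stay near 0 throughout.

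The rest of the pathway was followed in a list of 91 genes by role, of which 60 passed the filter on low counts. In Lyso against WT, 3 of the 60 were called higher and 1 lower (5.0% and 1.67%), beside 3.5% and 1.21% of all 14924 genes tested. The median of the list was 0.00 log2 units, beside 0.00 for all genes tested. It was -0.04 over the 54 genes with a count in either group, with those at 0 in one group set at their bound. Lrp5, a ligand coreceptor, rose by 0.83 ± 0.14 (edgeR adjusted p = 0.00426), from 40.1 to 52.0 CPM in WT to 78.8 to 89.9 in Lyso. Rspo3, a secreted enhancer of Wnt signaling, was at 0, 0.422 and 0.236 CPM in WT, from 0, 1 and 4 counts, and at 3.49, 2.79 and 2.75 CPM in Lyso (edgeR adjusted p = 0.00603).

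Dkk3, of the Dickkopf family of secreted proteins, rose by 1.73 ± 0.34 in Lyso (edgeR adjusted p = 0.0119), from 42.1 to 69.6 CPM to 173.6 to 175.9. Fzd2, a Frizzled receptor, fell by 0.90 ± 0.21 (edgeR adjusted p = 0.0318), from 18.6 to 19.8 CPM to 9.69 to 11.6. Of the 13 cytoplasmic, 13 nuclear and 6 target genes tested, 0 were called by edgeR or DESeq2, and 1 in each class had an unadjusted p under 0.05. Myc, a target, was at 43.6 to 88.7 CPM in WT and 66.3 to 81.3 in Lyso. Without WT 3 the calls of Rspo3, Dkk3 and Fzd2 were lost and 1 list gene remained called, without ITF1 there were 7, and Fzd2 was also lost without WT 2, Tumor 3 or any Lyso library (edgeR adjusted p from 0.0509 to 0.122).

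Against the relapsed lines, Lyso had Rspo3 (1.94 ± 0.42 log2 units), Lrp5 (0.54 ± 0.13) and Ccnd1 (1.25 ± 0.34, edgeR adjusted p = 0.0445) higher. Ccnd1, a cell-cycle cyclin and target gene, was at 268.1 to 272.4 CPM in Lyso, 44.8 to 152.5 in the relapsed lines and 194.7 to 355.6 in WT. The Lyso values of Ccnd1 thus fell inside the WT range. Lrp6 (-0.62 ± 0.13) and Fzd2 (-0.82 ± 0.20) were lower. These calls were 3 higher and 2 lower of the 60 (5.0% and 3.33%), beside 4.87% and 2.81% of all genes tested. The call of Lrp5 was lost without ITM or any Lyso library (edgeR adjusted p from 0.0515 to 0.12), that of Fzd2 without ITF1 or any Lyso library (0.0628 to 0.115), that of Rspo3 without Lyso 1 (0.0745) and that of Lrp6 without Lyso 2 (0.0592). Without Lyso 1, 2 or 3 the list count was 1, 1 or 2, and without WT 1 or ITM it was 8 or 9, and the call of Ccnd1 was lost without 8 of the 12 libraries (WT 2, Rel, any Tumor or any Lyso library, edgeR adjusted p from 0.0533 to 0.13). In the relapsed lines against WT, 0 of the 60 were called by edgeR, beside 0.0134% of all genes higher and 0.0268% lower. At an unadjusted p under 0.05 there were 10, and DESeq2 called 3 (Dkk3, Ccnd1 and Tnks). With 1 library left out, edgeR called 1 without WT 1, 3 without ITF1 and 1 without ITM.

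In the Tumor comparisons, 9 of the 60 passed the filter on low counts only through the Tumor libraries, and they are given by their levels. Of the 51 others, 13 were called higher in Tumor than in WT and only Tnfrsf19 lower (-1.57 ± 0.30), with a median of 0.06 log2 units. Among all genes that passed without Tumor and without WT, 8.87% were higher and 7.36% lower, with a median of -0.02. Of the 9, 6 were above the floor in Tumor only: the ligands Wnt2 and Wnt5a, the receptor Ror2, the secreted inhibitors Sfrp1 and Sfrp2, and the target Apcdd1. Sfrp2 was at 33.9 to 69.9 CPM in Tumor and 0 in all 9 cultured libraries, and Wnt2 at 3.53 to 4.23 CPM and 0. The other 3 were Fzd8, Tle2 and Sfrp4, and Sfrp4, another secreted inhibitor, was at 24.6 to 41.0 CPM in Tumor and at most 0.589 CPM in culture. Col3a1 moved with them, at 3369 to 4938 CPM in Tumor and at most 1 count in culture, and the part of stromal RNA in these differences was not tested.

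Other genes rose from levels well above the floor, and the part of stromal RNA in their rises was not tested either. Lrp5 was 1.24 ± 0.14 log2 units higher in Tumor than in WT (edgeR adjusted p = 6.9e-05), at 99.1 to 122.0 CPM. Myc was 1.93 ± 0.22 higher (edgeR adjusted p = 7.7e-05), at 267.5 to 291.6 CPM. Tle3, a corepressor that binds TCF proteins, was 0.95 ± 0.17 higher (edgeR adjusted p = 0.00199), at 112.5 to 142.4 CPM. Dkk3 was 2.13 ± 0.35 higher (edgeR adjusted p = 0.00107), at 208.7 to 247.2 CPM.

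Against the relapsed lines, 6 of the 51 were higher in Tumor and 1 lower, beside 8.47% and 8.22% of all genes that passed without either group. Against Lyso 11 of the 51 were higher and 1, Fzd7, lower, beside 11.2% and 10.9%. With the 9 genes included, the number called against Lyso was 20, and 13 without Tumor 1 or without Lyso 2. The call of Fzd7 was lost without any of the Tumor or Lyso libraries (edgeR adjusted p from 0.0502 to 0.0914). Lrp5, Rspo3 and Dkk3 were called higher than WT in both Lyso and Tumor, and these comparisons share the WT libraries. In the relapsed lines Dkk3 was 1.49 ± 0.34 log2 units above WT (edgeR adjusted p = 0.151) and Rspo3 1.65 ± 0.69 (0.407). Dkk3 in Lyso differed from the relapsed lines by 0.25 ± 0.32 (edgeR adjusted p = 0.716). The rise of Rspo3 in Tumor was lost without WT 3 (edgeR adjusted p = 0.141) or Tumor 3 (0.077).

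**Figure D4:**
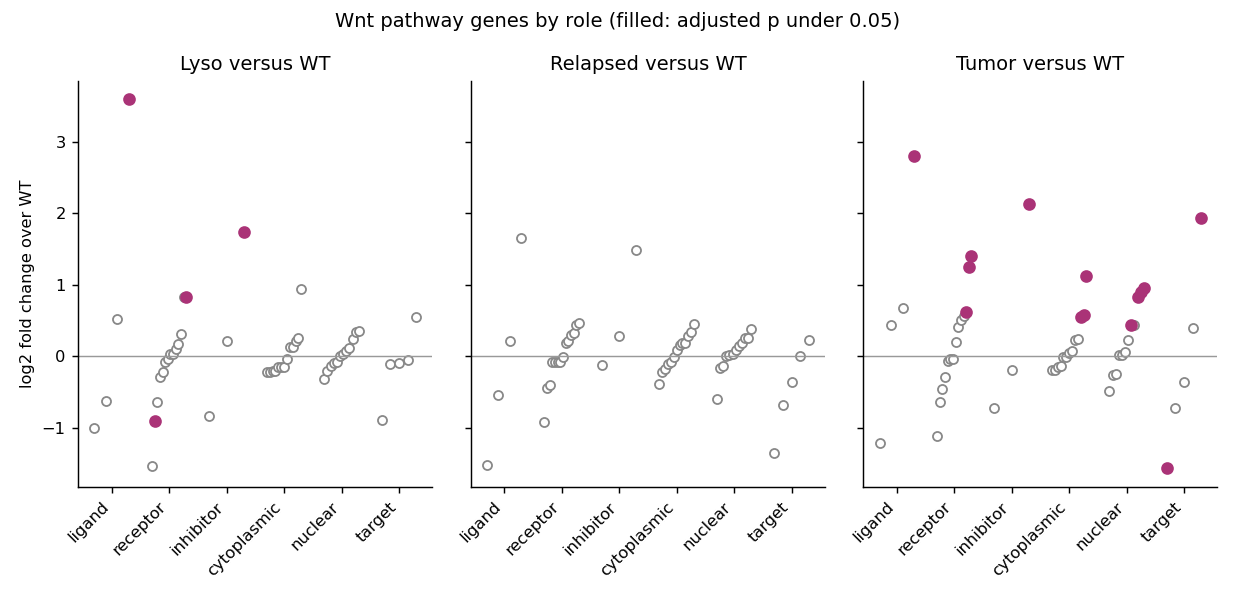
Log2 fold changes over WT of 51 Wnt pathway genes by role, without the 9 that passed the filter only through Tumor; filled points have an edgeR adjusted p under 0.05. The Lyso panel holds 4 filled points, the relapsed panel 0 and the Tumor panel 14.

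The genes whose pattern over the 12 libraries was most like that of Tcf7, by Pearson's r of log2 CPM, were Gm12185 (0.99), Rnf19b (0.98), AU020206 (0.98), Gm4841 (0.98) and Gbp11 (0.97). Rnf19b stood at 24.2 CPM in WT, 22.8 in the relapsed lines, 128.1 in Lyso and 49.5 in Tumor on average. Gm12185 stood at 0, 0.020, 52.2 and 3.86 CPM in the same order. The coefficient rests on 4 groups of libraries that share treatment and differ in depth, and is a description. By Spearman's rank correlation, 1 of these 5 was again among the top 5. The genes most like Lef1 were Ddx41 (0.96), Tpst2 (0.94), Pdcd7 (0.94), Mrpl10 (0.93) and Rad18 (0.93), none of them shared with the top 5 by rank.

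The RefSeq promoter windows of the 6 genes were searched on both strands for CTTTGAT, the core bound by TCF/LEF proteins, and for TTCNNNGAA, the core bound by STAT proteins. Neither was found in any of their windows, which cover only a short stretch upstream of each start site. Of all 32851 windows, 3.73% held the first and 8.3% the second, so these letters are uncommon in windows of this length. Finding none in the few windows of these genes is therefore uninformative. Sites elsewhere and other forms of the cores were not searched.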

How the data were processed

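Sequencing libraries (mRNA, NextSeq) were made by the authors, who trimmed reads with fastp 0.19.6, aligned them with STAR 2.7.1a to GRCm38 and deposited raw counts per gene, without normalization. The strand setting and annotation release are not given in the sources used here. Of the reads, 60.6% to 63.8% were in the 4 rows that name no gene and were left out. Identifiers were matched to GENCODE vM21 (54079 of 54232); Tle5 was matched as Aes. The members and gene lists were chosen with earlier results of these data known.

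The 14924 genes kept by filterByExpr were fitted in R 4.3.3 with edgeR 4.0.16 (TMM, glmQLFit, glmQLFTest, 1 fit of the 12 libraries, 6 comparisons), with Benjamini-Hochberg adjustment over all genes and calls at an adjusted p under 0.05. SEs were derived from the fold changes and their F statistics. Tcf7 has no test and is left out of counts of called members wherever Lyso or WT is compared; for Tumor and the relapsed lines against WT this was decided after the values were seen. Counts of Wnt genes in the Tumor comparisons leave out those that passed the filter only through Tumor, a choice also made after the values were seen. The script was tested on simulated data. Likeness used log2 CPM with a prior count of 2.

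Named genes were the 6 members, called Wnt genes (those with the smallest p where over 8; not all are printed), T-cell genes and the 5 genes most like Tcf7 and Lef1. Thy1, Col3a1, Ccnd1 in WT, Myc in Lyso and Fzd7 were added after their values were seen. Alternatives were RLE factors, library size only, no filter, DESeq2 1.42.0, only the compared groups, the replicate block, each library left out, subsets of WT and a fold change minimum. Replicate numbers shared by WT, Lyso and Tumor did not pair the libraries, with correlations of deviations of -0.0081 to 0.065.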

Additional observations from a re-analysis of the deposited data

How the results depend on the processing

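Of 700 values of the 6 genes under an alternative, 621 kept their direction and side of the threshold, and of 448 values of named Wnt pathway genes, 401 did and 0 changed direction. Tcf7 in Tumor was above the relapsed lines, past the threshold, in every alternative run, and 1.48 to 2.09 log2 units above WT, and in Lyso it was lowest, at 3.79 log2 units over WT, with WT 1 and WT 2 as the only WT libraries. Where other members differed in sign from the main value they were not called. With WT 1 and WT 2 as the only WT libraries, Tcf7l2 was 0.26 in Lyso and 0.22 in the relapsed lines over WT, and Tcf7l1 was 0.081 in the relapsed lines. With WT 3 as the only WT library, Tcf7l2 was -0.19 in Tumor over WT. Without a filter, Tcf7l1 was 0.021 in the relapsed lines over WT and Tcf7l2 -0.016 in Lyso over the relapsed lines, and with library size only the latter was -0.040. Leaving out 1 library each, Tcf7l2 ran from -0.20 to 0.26 in Lyso over WT, from -0.10 to 0.36 in Tumor over WT, from -0.26 to 0.22 in the relapsed lines over WT, from -0.11 to 0.24 in Lyso over the relapsed lines and from -0.035 to 0.22 in Tumor over Lyso. Tcf7l1 ran from -0.20 to 0.21 in the relapsed lines over WT, Axin2 from -0.38 to 0.062 in Tumor and from -0.067 to 0.23 in the relapsed lines over WT, and Ctnnb1 from -0.042 to 0.12 in Tumor over Lyso. Lef1 did not pass the filter when Tumor and WT, or Tumor and the relapsed lines, were fitted alone. The causes were not tested.

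The number of members called in Lyso over WT was 0 in place of 1 with library size only, with either WT subset and with a log2 fold change minimum of 1. In Tumor over WT it was 1 in place of 2 with library size only, with only the 2 groups compared, with WT 3 only and with the minimum, and 0 with WT 1 and WT 2 only. The relapsed lines over WT had 1 in place of 0 without a filter. Lyso over the relapsed lines had 2 in place of 1 without a filter, with only the 2 groups compared and with WT 3 only, and 0 with the fold change minimum. Tumor over the relapsed lines had 1 in place of 2 with only the 2 groups compared and with the minimum. Leaving out 1 library each, these counts ran from 0 to 1, 0 to 2, 0 to 1, 0 to 2 and 1 to 2 in that order.

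The number of Wnt list genes called in Lyso over WT was 8 in place of 4 without a filter, 7 with only the 2 groups, 1 with either WT subset and 2 with the minimum. The relapsed lines over WT had 3 without a filter and 3 by DESeq2 in place of 0. Lyso over the relapsed lines had 8 in place of 5 without a filter, 3 with only the 2 groups and 2 with the minimum. Tumor against Lyso had 31 in place of 20 with only the 2 groups and 12 with the minimum. Leaving out 1 library each, these ran from 1 to 7, 0 to 3, 1 to 9 and 13 to 25.

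With the replicate number of WT, Lyso and Tumor as a block, which does not pair the libraries, 0 members in place of 2 were called in Tumor over WT, since Lef1 and Tcf7l1 were lost (edgeR adjusted p = 0.0838 and 0.0699), and 12 Wnt list genes in place of 20 in Tumor against Lyso. With library size only, Axin2 in Lyso (0.059) and Tcf7l1 in Tumor (0.0682) missed the threshold against WT. Depth limits Lef1 most, at no more than 3 counts in any Tumor library and 0 in WT 1.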
